A study of Danio rerio with 3 samples.

Results

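The genes described here are 10 transcription factors that pattern the pharyngeal arches of the zebrafish, chosen by name: dlx2a (ENSDARG00000079964), dlx3b (ENSDARG00000014626), dlx4a (ENSDARG00000011956), dlx4b (ENSDARG00000071560), dlx5a (ENSDARG00000042296), barx1 (ENSDARG00000007407), hand2 (ENSDARG00000008305), gsc (ENSDARG00000059073), twist1a (ENSDARG00000030402) and prrx1a (ENSDARG00000033971). All 10 were among the 28216 gene symbols of the expression matrices, and all 10 had UMIs (unique molecular identifiers, 1 per captured transcript) in each of the 3 single-cell libraries, where 21770 to 23570 symbols had at least 1. The study asked which transcripts cells make while a tissue is being taken apart. Wild-type larvae at 48 h post fertilization were dissociated whole in the presence of 4-thiouridine (4sU, 10 mM, 30 min at 37°C), a uridine analog that is built into new RNA and, after iodoacetamide treatment, read as T-to-C substitutions. Each library came from a pool of 10 larvae. Cells of the first library were fixed in methanol directly after dissociation (dissociation library). The second was kept on ice for about 15 min, passed through a FACS instrument in 10 min with a wide gate that left out small debris and extreme sizes, and then fixed (FACS library). The third was sorted in the same way and stood on ice for a further 30 min before fixation (FACS and ice library). The cooled receiving tube of both sorts also held 4sU, so these 2 suspensions met the analog for longer, and no library without 4sU was analysed here. With 1 library per preparation there was no replicate, no difference between preparations could be tested, and every interval below is a 95% interval for counting error alone.

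The pharyngeal arches are paired segments below the embryonic head that give rise to the jaw, the hyoid and the gill skeleton. Neural crest cells fill them, and nested domains of homeobox and bHLH factors give these cells their position from the upper to the lower part of each arch. The Dlx genes lie largely in linked pairs and form the core of this code, with dlx2a active broadly in the arch crest and in forebrain neurons, and dlx3b, dlx4a, dlx4b and dlx5a in more restricted domains. Within them hand2 marks the lower arch, gsc and barx1 mark patches of skeleton-forming crest, and twist1a and prrx1a are general factors of cranial mesenchyme.

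The libraries held 11043, 4609 and 9550 cells, with 50313576, 23095410 and 61231163 UMIs and medians of 2402, 3143 and 3995 UMIs per cell, in the order dissociation, FACS, FACS and ice. Pairs of libraries shared 11 to 28 barcodes. The dissociation library stood apart in the RNA of other tissues: the 6 genes of a muscle marker list, none at 0, summed to 10027 UMIs per 1000000 UMIs of the library (CPM) there against 251 and 453 CPM after sorting, and 94.7% of its cells held at least 2 muscle UMIs against 5.92% and 8.69%. Summed epidermal markers were 10105, 3573 and 4221 CPM. Hemoglobin took 5.57%, 9.68% and 5.82% of all UMIs, and 99.3% to 99.9% of cells held at least 2 UMIs of it. Whether free RNA in the suspension gave these UMIs was not tested. Cells with at least 50% hemoglobin (257, 232 and 311) served as a type that should lack arch factors.

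dlx2a, which takes part in arch crest and in the inhibitory neurons of the forebrain, measured 11.8 CPM (10.9 to 12.8) in the dissociation library, 16.2 CPM (14.6 to 17.9) in the FACS library and 13.2 CPM (12.3 to 14.2) in the FACS and ice library. Its FACS value lay above both others beyond counting error. dlx3b, known also from the otic and olfactory placodes, measured 19.4 CPM (18.2 to 20.7), 17.6 CPM (15.9 to 19.4) and 20.1 CPM (19.0 to 21.3). These 3 intervals overlapped, and its ratios between libraries are given below with their own intervals.

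dlx4a, an arch gene of the same family, measured 25 CPM (23.6 to 26.4) in the dissociation library, 44.8 CPM (42.1 to 47.6) in the FACS library and 38.8 CPM (37.2 to 40.3) in the FACS and ice library. Its RNA was concentrated in few cells, with 3.30, 5.69 and 5.10 UMIs per cell that held it and up to 38 UMIs in 1 cell. dlx4b, the neighbor of dlx3b, had 340, 240 and 550 UMIs in all, or 6.76 CPM (6.06 to 7.52), 10.4 CPM (9.12 to 11.8) and 8.98 CPM (8.25 to 9.77). dlx5a, which responds to endothelin signaling in the lower arch, measured 31.7 CPM (30.2 to 33.3), 41.7 CPM (39.1 to 44.4) and 39.5 CPM (38.0 to 41.1). The dissociation library was thus the lowest for dlx4a, dlx4b and dlx5a, and its interval did not reach either sorted library.

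barx1, a homeobox factor of skeletal precursors, measured 22.4 CPM (21.1 to 23.7), 35.8 CPM (33.4 to 38.3) and 34.8 CPM (33.4 to 36.3) in the same order. hand2, the bHLH factor of the lower arch that is also active in heart and fin bud, measured 12.4 CPM (11.4 to 13.4), 21.1 CPM (19.3 to 23.0) and 23.2 CPM (22 to 24.4). gsc, a homeobox repressor first known from the gastrula organizer, measured 13.3 CPM (12.3 to 14.3), 22 CPM (20.1 to 24.0) and 18.8 CPM (17.7 to 19.9). All 3 were lowest without sorting, and only gsc differed between the 2 sorted libraries beyond counting error.

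twist1a, a bHLH factor of neural crest and mesenchyme, measured 59.7 CPM (57.6 to 61.9) in the dissociation library, 101 CPM (97.4 to 106) in the FACS library and 109 CPM (106 to 111) in the FACS and ice library. prrx1a, a paired-related homeobox factor of head and limb mesenchyme, measured 24.3 CPM (23.0 to 25.7), 42.1 CPM (39.5 to 44.9) and 40.1 CPM (38.6 to 41.7). Both were again lowest in the unsorted library.

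**Figure D1:**
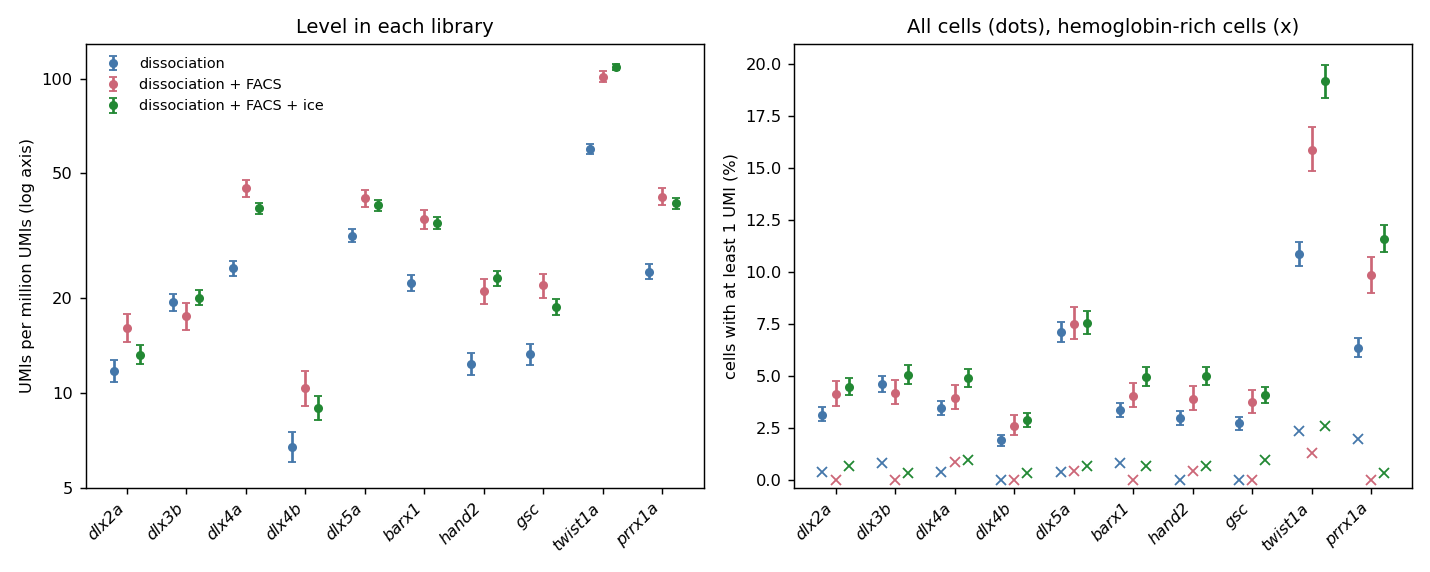
Left, level of each gene in CPM (UMIs per 1000000 UMIs, log axis) in the 3 libraries, 1 point per library with its 95% Poisson interval; right, percent of all cells with at least 1 UMI (dots, 95% Clopper-Pearson intervals) and of hemoglobin-rich cells (crosses). The dissociation level is the lowest for every gene except dlx3b, whose 3 intervals overlap (17.6 to 20.1 CPM), and every dot lies above the cross of its library.

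Cells with any of these genes were a minority. twist1a was found in 10.8%, 15.9% and 19.2% of cells and prrx1a in 6.33%, 9.83% and 11.6%. dlx5a was found in 7.10%, 7.51% and 7.55%, and the other 7 genes in between 1.88% and 5.06%. The hemoglobin-rich cells had a median depth of 8117 to 9681 UMIs, against 2338 to 3892 UMIs in the other cells. By definition at least 50% of their UMIs were hemoglobin, and their depth in other genes was not compared. In the hemoglobin-rich cells the shares were 0 to 2.33%, 0 to 1.29% and 0.322% to 2.57%, with twist1a the highest each time. Each gene without a UMI there (3, 6 and 0 of the 10) was in 0 of 257 or 0 of 232 of them, which allows a UMI of it in up to 1.17% and 1.29% of such cells and says nothing of RNA that was not captured. Each gene was found in a larger share of all cells than of hemoglobin-rich cells of its library. With each cell thinned to 1000 UMIs, which left out 2496, 422 and 1124 shallower cells, the shares fell to 0.620% to 4.96%, 0.693% to 7.17% and 0.605% to 7.10%. At this equal depth twist1a was in 4.96%, 7.17% and 7.10% of cells, and dlx3b in 1.13%, 1.12% and 1.39%.

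The first comparison asks how the levels of these genes differed between the preparations. Against the dissociation library, 7 of the 10 genes were at least 1.5-fold higher in the FACS library and 0 were that much lower, where 6.91% of the 10492 genes with at least 50 UMIs in both libraries were that much higher and 6.43% that much lower. The 7 were dlx4a at 1.80-fold (1.65 to 1.95), prrx1a at 1.73-fold (1.59 to 1.88), hand2 at 1.70-fold (1.51 to 1.91), twist1a at 1.70-fold (1.61 to 1.79), gsc at 1.66-fold (1.48 to 1.86), barx1 at 1.60-fold (1.46 to 1.75) and dlx4b at 1.54-fold (1.3 to 1.81). dlx2a stood at 1.37-fold and dlx5a at 1.31-fold, while dlx3b stood at 0.904-fold with an interval that included no difference (0.806 to 1.02). The median over the 10 genes was 1.63-fold, against 1.06-fold over all genes tested.

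The FACS and ice library gave 5 of 10 genes at least 1.5-fold above the same dissociation library, against 17.9% of 12748 genes, and 0 that much lower, against 7.59%. hand2 led with 1.87-fold (1.70 to 2.05), ahead of twist1a with 1.82-fold (1.74 to 1.90), and prrx1a, barx1 and dlx4a followed with 1.65-fold, 1.56-fold and 1.55-fold. The median was 1.48-fold, against 1.15-fold over all genes. These 2 comparisons share the dissociation library, so they are not independent of each other.

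Between the 2 sorted libraries 0 of the 10 genes passed 1.5-fold in either direction, where 8.54% of 10507 genes were that much higher and 2.24% that much lower after the stay on ice. The ratios ran from 0.820-fold for dlx2a (0.725 to 0.927) to 1.15-fold for dlx3b (1.02 to 1.28). Their median was 0.951-fold, against 1.09-fold over all genes, and 3 of 10 were above 1.

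The mix of cells moved with this contrast. Summed muscle and epidermal marker RNA was lower in both sorted libraries (values above), and tables that the study labeled pharyngeal arch held 8.67% of all table reads in the dissociation library, 14.0% in the FACS library and 9.92% in the FACS and ice library. Fewer cells of a type and less RNA per cell cannot be told apart in a level taken over the whole library. Counted only within the arch tables, as reads per 1000000 reads of those tables (RPM), 1 of 10 genes was at least 1.5-fold higher in the FACS library than in the dissociation library (dlx2a, 26.6 against 41.3 RPM, 1.55-fold), where 8.13% of 7542 genes were, and 0 were that much lower, against 17.5%. The median ratio there was 1.13, against 0.932 over all genes, and barx1, at 188 and 167 RPM, was 0.888-fold.

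In the FACS and ice library, 3 of 10 passed 1.5-fold within the arch tables against the dissociation library, dlx2a at 1.64-fold, dlx5a at 1.63-fold and dlx4a at 1.60-fold, where 18.6% of 7435 genes did. That much lower were 0 of the 10, against 8.93%. The median ratio was 1.39 for the 10 genes and 1.08 over all genes. Against the FACS library only dlx3b passed, with 83.3 RPM against 52.8 RPM (1.58-fold), where 22.7% of 8110 genes did and 4.93% were that much lower, with 0 of the 10 factors among them. The median ratio between the sorted libraries was 1.16 for the 10 genes and 1.16 over all genes. The study named the cell types in each library separately, and of the tables used here the FACS and ice library has only a proliferating arch table, the dissociation library only a plain one and the FACS library both. In these ratios the preparation and the kind of arch table cannot be told apart.

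The second question was where in the larva the genes lay, from the 43 tables in which the study summed the reads of each cell type of each library. A gene counted as high in the arch when its RPM in the arch tables was at least 3-fold that in all other tables of the library together. This held for 10, 9 and 9 of the 10 genes, against 2.05%, 2.83% and 1.55% of all genes with at least 250 reads. The exception in both sorted libraries was twist1a, at 3.34-fold, 2.87-fold and 2.83-fold. The study named clusters of cells by marker genes, and its marker plot gives barx1 for the arch cells, so the ratios of 22, 14.5 and 15.0 for barx1 are no finding. Its clusters drew on the expression of many genes, and the ratios of the other 9 are descriptions too. The arch tables held 40.9%, 53.9% and 43.9% of all reads of the 10 genes.

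Tables are called here by the study's labels, and the label epidermis went against marker lists. In the tables labeled epidermis, 7 epidermal markers such as krt4 and epcam summed to 979, 160 and 235 RPM, ranking 8 of 14, 8 of 15 and 9 of 14 tables, while 5 fibroblast markers such as col1a2 summed to 3760, 4756 and 3225 RPM, ranking 2 each time. The epidermal list was highest in the tables labeled pharynx, at 151258, 90904 and 123825 RPM. Values of the 10 genes in the tables labeled epidermis or pharynx are therefore read as values of tables, not of a tissue.

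dlx4a had 187, 278 and 300 RPM in the arch tables and arch ratios of 21.4, 40.8 and 28.0, the highest of the set in the FACS library. gsc had 113, 115 and 107 RPM there and ratios of 17.3, 16.5 and 11.8, and hand2 had 82.9, 89.0 and 105 RPM and ratios of 14.6, 11.4 and 9.06. After the arch, gsc was next highest in cartilage in the dissociation library (46.9 RPM), in pigment cells in the FACS library (35.7 RPM) and in the table labeled epidermis in the FACS and ice library (27.1 RPM).

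dlx4b had 44.2, 47.4 and 64.4 RPM in the arch tables and arch ratios of 14.4, 13.8 and 27.6. dlx5a had 114, 155 and 186 RPM in the arch and ratios of 5.47, 7.22 and 8.59, with a further site in the tables labeled pharynx (83.5, 73.4 and 85.3 RPM), and a lower level in the nervous system (24.3, 33.4 and 35.6 RPM). dlx2a had ratios of 3.10, 6.41 and 5.89, with 26.6, 41.3 and 43.6 RPM in the arch and 14.4, 16.3 and 16.6 RPM in the nervous system. These nervous system tables held 933, 749 and 746 of its reads. So for dlx2a and dlx5a, the family members known from forebrain neurons, arch cells were the highest site but not the single one.

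The arch table was the highest of its library for 7 of the 10 genes in each library, and dlx3b, twist1a and prrx1a were the other 3 each time. dlx3b was highest in the tables labeled pharynx, at 72.2, 72.4 and 88.8 RPM, against 58.5, 52.8 and 83.3 RPM in the arch tables. In the FACS and ice library the intervals of these 2 sites overlapped, and in the FACS library pectoral fins (70.7 RPM) overlapped with the table labeled pharynx.

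twist1a reached 434, 418 and 387 RPM in the tables labeled epidermis and 301, 478 and 382 RPM in the pectoral fin tables, above its 197, 235 and 268 RPM in the arch. prrx1a was highest in pectoral fins, at 145, 230 and 188 RPM, against 88.3, 106 and 105 RPM in the arch. Cartilage, with 280, 241 and 281 RPM of twist1a and 109, 80.7 and 98.4 RPM of prrx1a, held both as well. The blood tables were low for every gene, at 0.174 to 6.38 RPM, 0.322 to 13.1 RPM and 1.1 to 18.7 RPM.

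**Figure D2:**
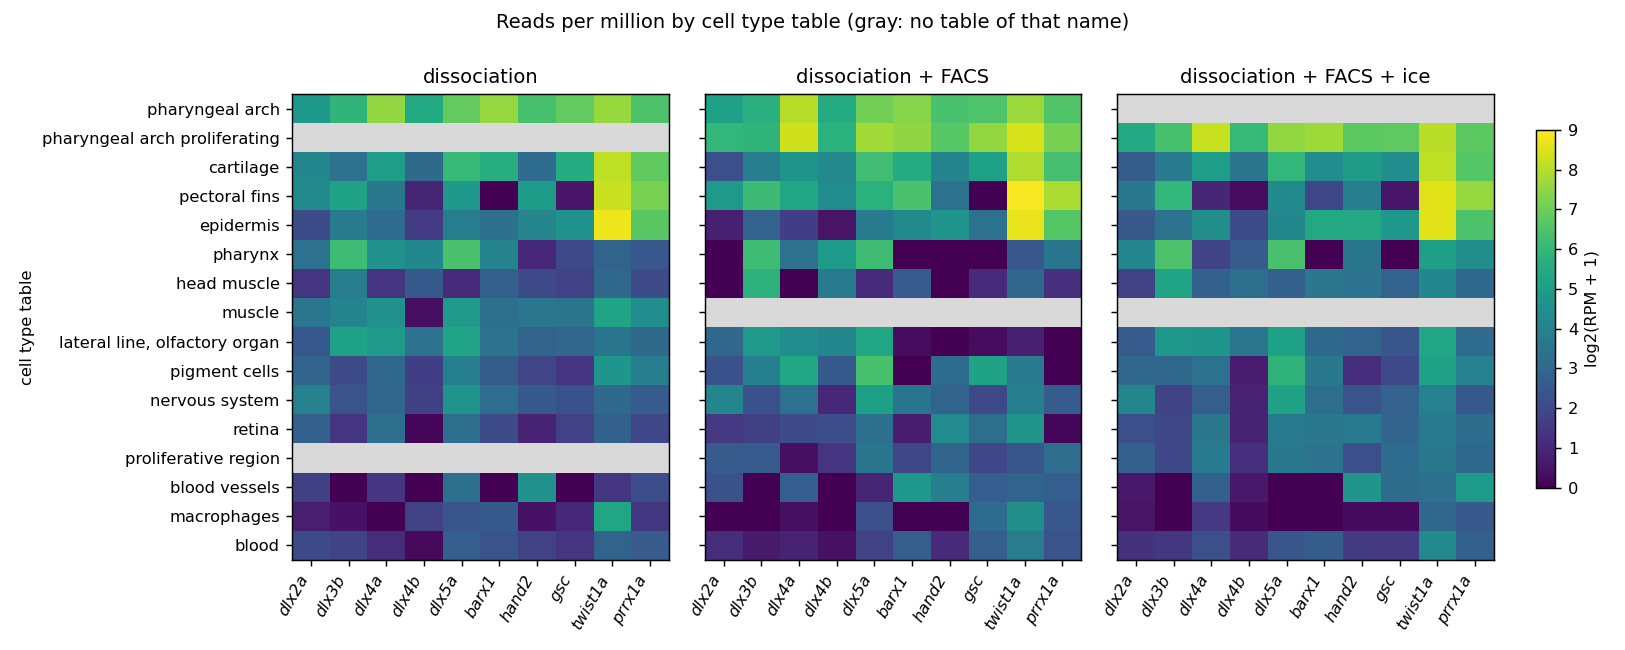
Level of each gene (columns) in each cell type table (rows) of the 3 libraries, as log2(RPM + 1) in color, with gray where a library had no table of that name. Arch tables are brightest for 7 genes in each library, while twist1a reaches 434 RPM in the table labeled epidermis and 478 RPM in pectoral fins. prrx1a peaks in pectoral fins (230 RPM) and dlx3b in the table labeled pharynx (88.8 RPM).

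The FACS library was the only one with both a plain and a proliferating arch table, and all 10 genes had a higher RPM in the proliferating one, as did 67% of 5047 genes with at least 50 reads in both. The median ratio was 1.37 for the 10 and 1.22 for all genes. gsc stood at 187 against 91.5 RPM, dlx2a at 61.3 against 34.8 RPM, twist1a at 349 against 197 RPM and dlx5a at 216 against 136 RPM. The differences were smallest for barx1, at 181 against 163 RPM, and for dlx3b, at 57.8 against 51.1 RPM. The number of cells behind each table was not used here, and the comparison rests on this library alone.

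Over the 43 tables, genes were ranked by the Pearson correlation of their log2(RPM + 1) with that of each factor, among 11445 genes. The tables of 1 library share its depth and any free RNA, so these values are descriptions. The 3 closest genes to dlx4a were dlx6a (0.814), dlx5a (0.761) and dlx2a (0.714), all of its own family. dlx2a was closest to dlx5a (0.740), dlx2b (0.721) and dlx4a (0.714), and dlx4b to dlx3b (0.765), dlx4a (0.706) and dlx5a (0.655). dlx5a had dlx4a, dlx2a and fgfr2 (0.725), a growth factor receptor, while dlx3b had gpt2l (0.767), dlx4b and net1 (0.756).

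The other 5 had their closest genes outside the Dlx family, gsc apart. gsc was closest to grem2b (0.780), a secreted BMP antagonist, dlx6a (0.772) and pcdh18a (0.768). barx1 was closest to adgrl2a (0.780), fibina (0.754) and pcdh18b (0.742), and hand2 to foxf2a (0.820), a forkhead factor, pskh1 (0.798) and yap1 (0.797). For twist1a the genes were fmoda (0.934), mfap2 (0.927) and col12a1a (0.916), 3 genes of the extracellular matrix. For prrx1a they were p3h1 (0.929), a collagen-modifying enzyme, its duplicate prrx1b (0.899) and serpinf1 (0.896). Among the 10 genes themselves twist1a and prrx1a were the most alike (0.875) and dlx3b and gsc the least (0.179).

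The third question was which of the genes were found in the same cells. At least 1 of the 10 was found in 2799, 1279 and 3148 cells, and at least 3 in 546, 355 and 806 cells, which is 4.94%, 7.70% and 8.44% of each library. At least 5 were found together in 154, 111 and 275 cells, and at least 7 in 38, 32 and 85. Cells with at least 3 were deeper than cells with none, at a median of 7139 against 1951 UMIs, 7524 against 2530 and 9749 against 3153. Since deeper cells show more genes of any kind, each pair was also counted at 1000 UMIs per cell.

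For each of the 45 pairs, co-detection was measured as the share of cells with the first gene that also held the second, divided by the share of all cells that held the second. It was at least 3-fold for 35, 36 and 30 pairs, against 8.97%, 5.62% and 5.12% of pairs of one of these factors with any other gene. The medians were 4.38, 4.53 and 4.06, against 1.76, 1.58 and 1.71. Over the 3 libraries 30 pairs passed in all and 9 in none. At 1000 UMIs per cell, 28 pairs kept 50 cells of both genes in all 3 libraries, and 11 of them passed in all and 7 in none. At 2000 UMIs, 17 of 36 such pairs passed in all and 15 in none. Thinned, 27 of 45, 18 of 28 and 25 of 45 pairs passed, against 3.19%, 3.01% and 3.11% of the pairs with any other gene, where the FACS library had 28 pairs left with both genes in at least 50 cells.

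All 10 pairs within the Dlx family passed in each library, with medians of 7.21, 8.94 and 7.88. Thinned, 9 of 10, 3 of 3 and 10 of 10 passed, and dlx2a with dlx3b in the dissociation library was the pair that did not (1.80). dlx4a and dlx4b, which lie on different chromosomes, were found together in 124, 82 and 193 cells. Their ratios were 17.3, 17.3 and 14.5, and thinned 23.5 and 26.6 in the dissociation and the FACS and ice library. dlx3b and dlx4b, genomic neighbors, stood at 13.1, 15.7 and 13.9, and dlx3b and dlx4a, which lie apart, at 9.32, 11.9 and 10.2. In the dissociation library 59.6% of cells with dlx4b also held dlx5a. Genes next to a member in the genome but outside the set gave ratios of the same size: dlx1a beside dlx2a gave 14.4, 16.9 and 14.5, and dlx6a beside dlx5a gave 9.33, 11 and 10.3. The crossed pairs, which lie apart, gave 8.74, 9.84 and 9.63 for dlx2a with dlx6a and 7.52, 9.99 and 8.83 for dlx5a with dlx1a. Thinned, the neighbors gave 7.70, 25.7 and 28.5 for dlx2a with dlx1a and 15.7, 12.3 and 15.2 for dlx5a with dlx6a. The crossed pairs then gave 8.31, 17.5 and 21.8 for dlx2a with dlx6a and 10.1, 15.3 and 18.0 for dlx5a with dlx1a. These thinned ratios rest on 3 to 31 cells with both genes. Whether genomic position bears on co-detection was not tested.

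Among barx1, hand2 and gsc all 3 pairs passed in each library. barx1 and gsc stood at 9.38, 7.49 and 6.71, and hand2 and gsc at 8.16, 6.85 and 6.11. Of the 15 pairs of a Dlx gene with one of these 3 factors, 14, 14 and 13 passed, and thinned 11 of 15, 6 of 9 and 9 of 15. Ratios with the mesenchymal factors were lower. Of the 10 pairs of a Dlx gene with twist1a or prrx1a, 2, 3 and 0 passed, at medians of 2.49, 2.47 and 2.43. Thinned, 0 of 10, 1 of 6 and 0 of 10 passed. The ceiling of this ratio is lower for a gene found in more cells, such as twist1a. Common and rare genes are therefore not ranked by it. In the FACS and ice library 53.6% of cells with dlx4b held twist1a (ratio 2.80) and 33.2% held barx1 (ratio 6.71). The lowest thinned ratio of all, 0.282, was that of dlx4a with prrx1a in the dissociation library, from 1 cell with both. twist1a and prrx1a were found together in 410, 326 and 801 cells, at 5.41, 4.53 and 3.78, and thinned at 4.74, 3.94 and 4.38. Their own duplicates gave 5.65, 4.56 and 3.99 for twist1a with twist1b and 7.28, 6.52 and 5.06 for prrx1a with prrx1b.

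**Figure D3:**
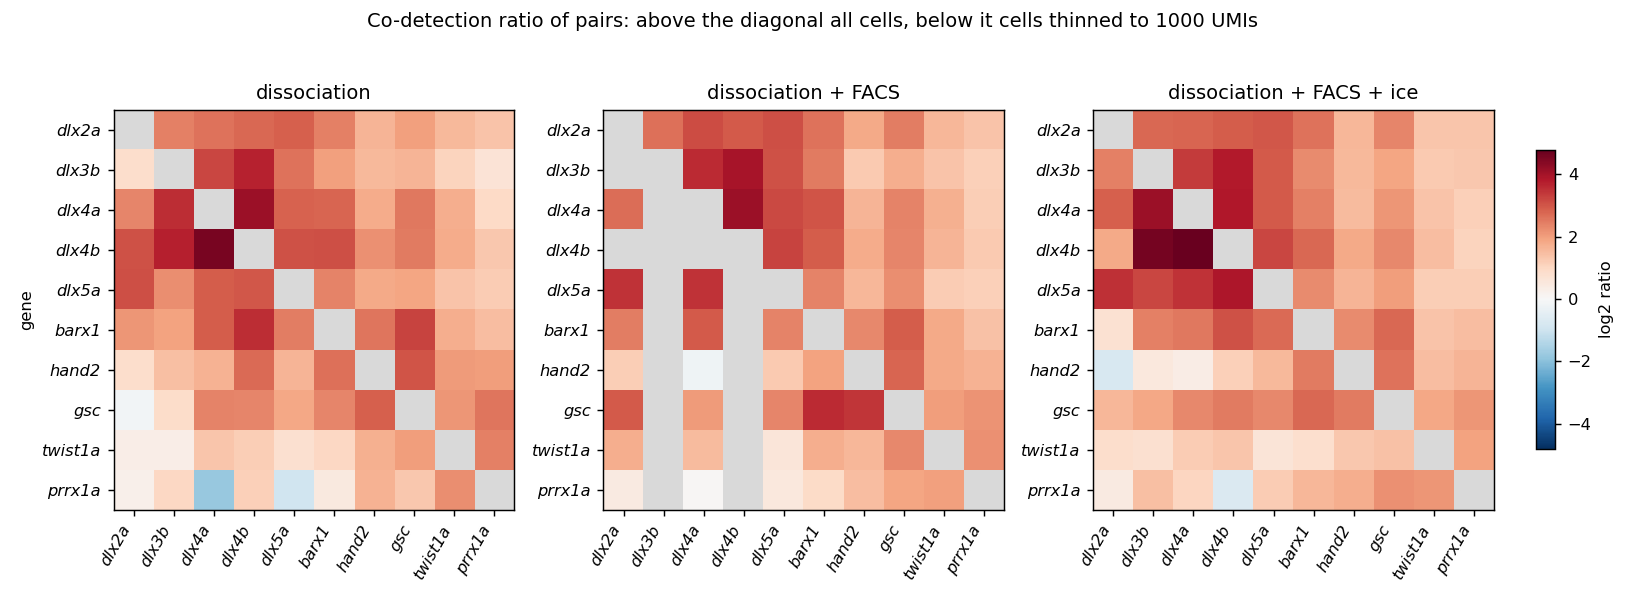
Co-detection of each pair of genes in the 3 libraries as the log2 of its ratio (color, 0 for a gene as frequent in cells with the other gene as in all cells), above the diagonal in all cells and below it in cells thinned to 1000 UMIs; gray pairs had under 50 cells of a gene. Above the diagonal the Dlx genes hold the highest ratios (up to 17.3), and twist1a and prrx1a give low ratios with them but not with each other (3.78 to 5.41).

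Markers of other cell types in the same thinned cells separated the genes further, with a cell counted for a type at 2 or more UMIs of its list. Of cells with twist1a, 50.7%, 56.3% and 54.8% also held fibroblast markers, which was 4.05, 4.24 and 3.78 times the share in all cells. prrx1a gave 3.68, 3.71 and 3.44. For cartilage markers twist1a gave 3.94, 3.31 and 3.34, and prrx1a 4.38, 3.27 and 2.40. dlx3b was enriched with fin fold markers, at 8.87 (14 of 97 cells), 14.4 (10 of 47) and 4.08 (11 of 117).

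GABAergic forebrain markers were found with dlx5a at 6.19 (12 of 224 cells), 5.64 (8 of 129) and 10.7 (28 of 245) and with dlx2a at 2.36 (2 of 98), 6.79 (5 of 67) and 19.9 (20 of 94). This list holds dlx1a and dlx6a, which arch cells also express. On its other 4 genes, a choice made after seeing the values, dlx5a kept 4, 3 and 13 cells, at 2.59, 3.04 and 6.67, and dlx2a kept 1, 1 and 6, at 1.48, 1.95 and 8.03. Counts of a few cells fix none of these ratios closely.

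The fourth question, the one the study was built for, was how much RNA of each factor was made during dissociation. A UMI with at least 2 T-to-C substitutions counts as labeled in the study's lists. These lists name the cells in which a gene was found and those in which it was found labeled. Taken over all 10 genes, 322 of 5176 detections were labeled in the dissociation library, or 6.22% (5.58% to 6.91%). The FACS library had 347 of 2822, or 12.3% (11.1% to 13.6%), and the FACS and ice library 920 of 6806, or 13.5% (12.7% to 14.4%). Over all genes the shares were 2.80%, 3.73% and 4.12%. At least 1.5 times the share of the library was reached by 3, 4 and 4 of the 10 genes, against 14.1%, 13.8% and 15.0% of all genes found in at least 50 cells, and the other 7, 6 and 6 of the set lay below that mark.

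dlx5a stood far above the other members. It was labeled in 142 of 794 cells in the dissociation library, or 17.9% (15.3% to 20.7%), in 135 of 353 cells or 38.2% (33.1% to 43.5%) in the FACS library, and in 269 of 743 cells or 36.2% (32.7% to 39.8%) in the FACS and ice library. The unsorted value was the lowest beyond counting error and the sorted ones overlapped. dlx5a alone made up 45.2%, 46.2% and 34.6% of the labeled entries of the set, and without it the pooled shares were 4.11%, 8.59% and 10.7%.

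twist1a followed with 91 of 1212 cells or 7.51% (6.09% to 9.14%), 115 of 750 or 15.3% (12.8% to 18.1%) and 347 of 1873 or 18.5% (16.8% to 20.4%). prrx1a had 35 of 707 or 4.95% (3.47% to 6.82%), 55 of 457 or 12% (9.20% to 15.4%) and 172 of 1126 or 15.3% (13.2% to 17.5%). These 3 genes were past 1.5 times the library's share in every library. dlx4a joined them in the FACS library with 6.12% and dlx3b in the FACS and ice library with 6.68%.

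The remaining genes were labeled less often than dlx5a, twist1a and prrx1a. The median share of a single gene was 1.02%, 1.36% and 1.79% over all genes, and 2.76%, 4.89% and 4.35% over the 10. barx1 was labeled in 1.34%, 0.515% and 3.73% of its detections, hand2 in 3.64%, 2.70% and 3.89%, and gsc in 2.64%, 4.55% and 4.57%. dlx4b had 2.88%, 0.826% and 2.15%, and dlx2a had 1.72%, 5.24% and 4.07%. These rest on 1 to 19 labeled cells each.

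A cell with more UMIs of a gene has more chances to hold a labeled one, and dlx5a had 2.03, 2.78 and 3.36 UMIs per cell that held it. Among cells with exactly 1 UMI, dlx5a was labeled in 11%, 21.4% and 16.6%, twist1a in 4.26%, 9.54% and 8.74%, and prrx1a in 3.55%, 5.31% and 7.07%. In these values the sorted libraries stayed above the unsorted one, by fewer percentage points than in all cells. No intervals are given for the shares at 1 UMI, so these differences are not shown to exceed counting error. Reads per UMI and the longer contact with 4sU also differed between the preparations, and their part was not tested.

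**Figure D4:**
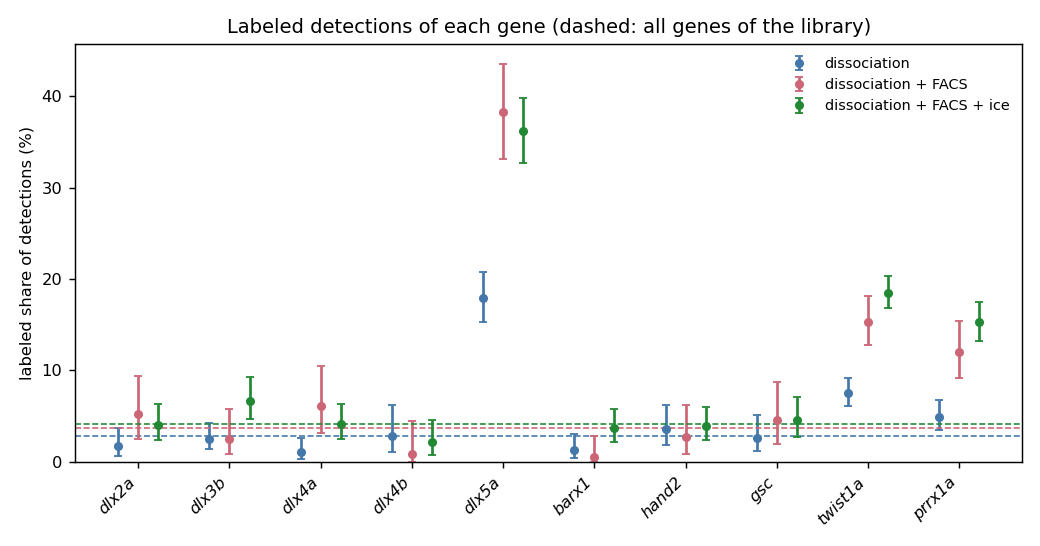
Percent of the cells with a gene in which it was labeled (at least 1 UMI with 2 or more T-to-C substitutions), per library, with 95% Clopper-Pearson intervals and the share over all genes of the library for reference. dlx5a reaches 17.9%, 38.2% and 36.2%, twist1a and prrx1a lie between 4.95% and 18.5%, and the other genes stay at or below 6.68%.

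The rate of T-to-C among all reads, labeled or not, needs no minimum of 2 substitutions. It is the fraction of T positions of the gene that were read as C, here weighted by reads over the tables of a library. For dlx5a it was 0.540%, 0.934% and 0.793%, with 0.0399%, 0.0343% and 0.0426% as the mean of its other 11 substitution types. twist1a had 1.09%, 1.27% and 1.37%, and prrx1a 0.758%, 1.06% and 1.16%. Over all genes the rate was 0.277%, 0.301% and 0.329%, with 0.139%, 0.135% and 0.135% for the other types.

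dlx4b went against its labeled share, with a T-to-C rate of 1.25%, 0.681% and 0.695%. barx1 (0.0965%, 0.141% and 0.134%), gsc (0.0909%, 0.253% and 0.193%), dlx2a (0.123%, 0.211% and 0.238%), hand2 (0.135%, 0.160% and 0.157%) and dlx4a (0.0605%, 0.102% and 0.108%) were all below the rate over all genes. dlx3b had 0.125%, 0.137% and 0.398%, below that rate except in the FACS and ice library. These raw rates are not set against the other types of the same gene, which over all genes stood at 0.139%, 0.135% and 0.135%. Among a gene's own 12 types, T-to-C ranked 2, 2 and 1 for dlx2a and 2, 1 and 1 for gsc. For barx1, hand2 and dlx4a its rank was 3 to 5. T-to-C was above the mean of the other 11 types for 7, 7 and 8 of the 10 genes, where it was for 57%, 61.2% and 69.8% of all genes with at least 250 reads. It was the highest of the 12 types for 1, 3 and 4 of the 10, against 16.1%, 21.3% and 26.8% of all genes.

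Substitutions that 4sU does not make were also high at single genes. prrx1a carried C-to-T at 4.11%, 4.23% and 4.24%, dlx4a G-to-A at 3.35%, 3.27% and 3.07% and C-to-A at 2.05%, 2.2% and 1.95%, and hand2 A-to-G at 1.48%, 1.34% and 1.51%, which differed little between libraries. Others were highest in the dissociation library: A-to-G of dlx3b at 1.21%, 0.784% and 0.713%, C-to-T of dlx4b at 1.53%, 0.976% and 0.918%, and C-to-G of twist1a at 1.56%, 1.27% and 1.04%. The median of the 110 rates of other types was 0.0374%, 0.0314% and 0.0379%. A fixed difference between these fish and the genome would give such a rate, and a T-to-C difference of this kind would enter both the T-to-C rate and the labeled lists. For the single-cell files a filter on such sites is not given in the sources used here. Their part in the rates and labeled shares was not tested for any gene, dlx4b, dlx5a, twist1a and prrx1a included.

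**Figure D5:**
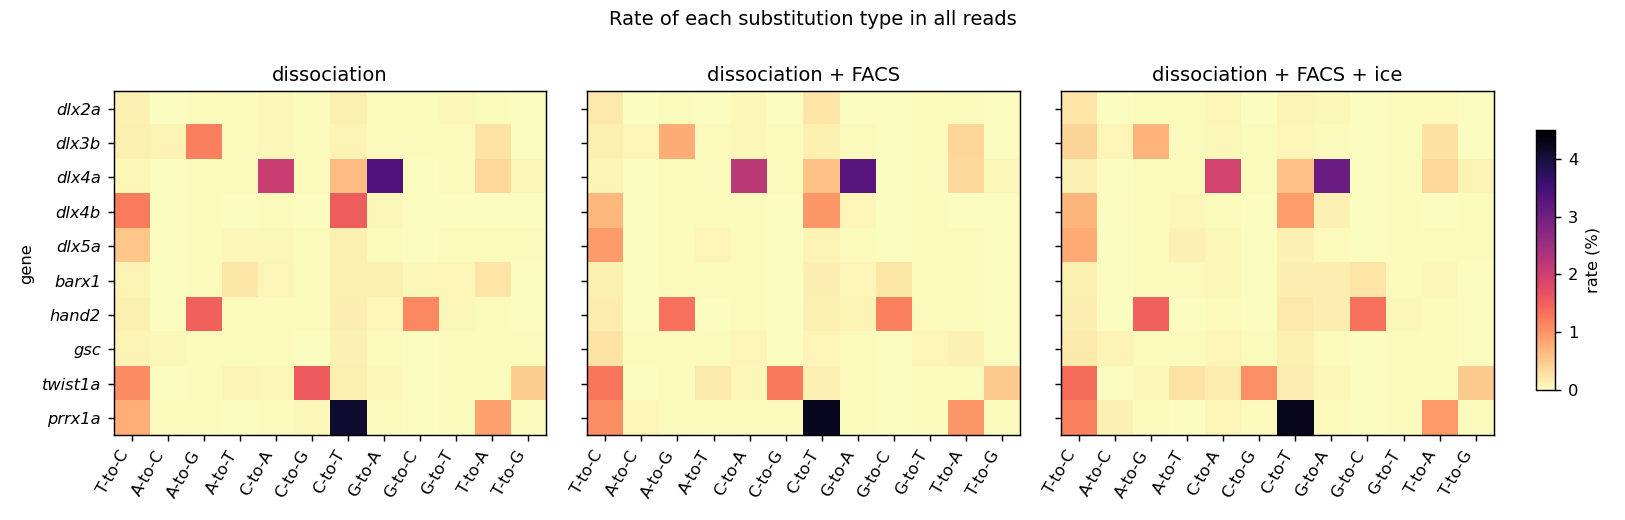
Rate of each of the 12 substitution types (columns) for each gene (rows) in the 3 libraries, in percent of positions of the reference base, on a linear color scale. T-to-C is the highest type for dlx5a in each library, while prrx1a (C-to-T, 4.11% to 4.24%), dlx4a (G-to-A, 3.07% to 3.35%) and hand2 (A-to-G, 1.34% to 1.51%) carry other types at a similar rate in all 3.

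Set beside these, 58 of 63 further arch genes on a list were in the files. Of those with enough UMIs, 16 of 48 were at least 1.5-fold higher in the FACS library than after dissociation alone and 1 that much lower, 20 of 51 higher and 2 lower in the FACS and ice library, and 3 of 48 higher and 1 lower between the sorted libraries. Over all genes 6.91%, 17.9% and 8.54% were that much higher in the 3 comparisons, and 6.43%, 7.59% and 2.24% that much lower. The medians of the listed genes were 1.40-fold, 1.41-fold and 0.983-fold. For the arch ratio, 23 of 50, 24 of 50 and 25 of 51 of them passed 3-fold, against 2.05%, 2.83% and 1.55% of all genes.

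dlx6a, the linked partner of dlx5a, stood at 1.62-fold and 1.42-fold of the dissociation library in the FACS library and the FACS and ice library, with arch ratios of 5.89, 8.37 and 8.18. dlx1a stood at 1.2-fold and 1.84-fold, with arch ratios of 2.72, 7.02 and 4.16. prrx1b, the duplicate of prrx1a, stood at 1.81-fold and 1.96-fold, with arch ratios of 5.82, 5.96 and 4.95. The AP-2 factors tfap2a and tfap2b and the homeobox factor meis2a were highest in the nervous system. msx1b, a homeobox factor of fin and arch mesenchyme, was highest in pectoral fins (243, 285 and 346 RPM). In the same order of libraries, tfap2a stood below the dissociation library, at 0.900-fold and 0.773-fold, and tfap2b at 1.13-fold and 0.973-fold. meis2a stood at 1.24-fold and 1.0997-fold, and msx1b at 1.28-fold and 1.29-fold.

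Of the listed genes found in at least 50 cells, 10 of 51, 9 of 46 and 7 of 52 were labeled at 1.5 times the share of the library or more. Of all genes found in at least 50 cells, 14.1%, 13.8% and 15% were. The medians of the listed genes were 1.65%, 2.99% and 3.23%. The medians over all genes were 1.02%, 1.36% and 1.79%. msx1b was labeled in 39.7%, 51.3% and 52.2% of its detections, above dlx5a in each library. The part of a fixed T-to-C difference in these shares was not tested. Of cells with dlx6a, 66.2%, 82.5% and 77.9% also held dlx5a, and of cells with dlx5a, 18.5%, 34.1% and 32.3% also held dlx6a. dlx6a was labeled in 0.450%, 0% and 0.667%, where 0 of 143 cells allows up to 2.1%. dlx1a was labeled in 0%, 3.57% and 1.95%, where 0 of 133 cells allows up to 2.26%. prrx1b was labeled in 1.44%, 2.43% and 3.80%, below prrx1a in each library.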

How the data were processed

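The deposited data were 10x Chromium gene-by-cell matrices of UMI counts as the authors made them with Cell Ranger 6.1.1 (bcl2fastq 2.19 and SAMtools 1.14 are also named), per-cell lists of genes found and found labeled, and tables per cell type of read counts and substitution rates. The genome was GRCz10, and the T-to-C rate was deposited as a ratio per T position at a base quality of at least 20. Cell types are the authors' own, named in each library apart. Symbols follow the matrices.

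UMIs and table reads were scaled to CPM and RPM. With 1 library per group no test was run. Differences are ratios with 95% Poisson, log-normal or Clopper-Pearson intervals for counting error. Intervals on table reads treat reads as independent molecules, which they are not, so those intervals are too narrow. Shares were recomputed with cells thinned to 1000 UMIs (seed 1), co-detection also at 2000, and CPM ratios and co-detection without the 5% of cells with most UMIs as possible doublets (no caller was run). Minimums were 50 UMIs, 50 cells or 250 reads. The upper limit given for a count of 0 is 3 divided by the number of cells counted, not a Clopper-Pearson bound. The members and lists were chosen with earlier results of these data known. The text names all 10 members, each one's 3 closest genes, and from the list of arch genes dlx1a, dlx6a and the 5 with most UMIs. The reference annotation (GRCz12tu) gave gene order only. Python 3.11.15, numpy 2.4.6, scipy 1.17.1, pandas 2.3.3 and matplotlib 3.10.9 were used, and the scripts were tested on simulated data.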

Additional observations from a re-analysis of the deposited data

How the results depend on the processing

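No paired analysis was possible because each preparation had 1 library and no result came from a test. The counts of genes at least 1.5-fold higher depended on what was counted. Without the 5% of cells with most UMIs, 3 genes passed in the FACS and ice library against the dissociation library (median 1.34). With table reads in place of UMIs, 2 passed in the FACS library (median 1.41) and 3 in the FACS and ice library (median 1.34). Within the arch tables, an alternative chosen after seeing the data, 1, 3 and 1 passed in the 3 comparisons. The medians there were 1.13, 1.39 and 1.16, against 0.932, 1.08 and 1.16 over all genes, and barx1 turned to 0.888 in the first. Without hemoglobin genes, without hemoglobin-rich cells or with other minimums on UMIs the counts stayed within 1.5 times. Against the highest other table alone, the arch ratio was at least 3 for 2, 3 and 4 genes, and it fell below 1 for dlx3b (0.810, 0.729 and 0.939), for prrx1a (0.611, 0.460 and 0.559) and for twist1a (0.453, 0.492 and 0.694).

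The pooled labeled share was 3.92%, 6.78% and 6.03% among cells with 1 UMI, and 4.11%, 8.59% and 10.7% without dlx5a, left out after seeing the data. Labeled entries were 0.645%, 0.489% and 1.48% of reads and 2.56, 4.03 and 4.76 per 100 UMIs, so the order of the libraries differed by denominator. With A-to-G as the background, the T-to-C rate of dlx4a turned to 2.51, 3.49 and 2.98 times it, and that of dlx3b to 0.558 times in the FACS and ice library. In the FACS library 18 pairs passed when cells were thinned to 1000 UMIs and 20 at 2000, of 28 and 36 pairs that kept 50 cells of both genes. With all 45 pairs kept, the dissociation library fell from 35 to 27 and 24 and the FACS and ice library from 30 to 25 and 25. Among pairs that had passed 3-fold, the ratio thinned to 1000 fell below 1 for dlx2a and gsc (0.918, dissociation), dlx4a and hand2 (0.865, FACS) and dlx2a and hand2 (0.594, FACS and ice). Each of these ratios rests on 1 cell with both genes, which does not fix its side of 1. Among pairs under 3-fold before thinning, the thinned ratio fell below 1 for dlx4a (0.282, 1 cell with both) and dlx5a (0.518, 3 cells) with prrx1a in the dissociation library. The same held for dlx4b with prrx1a (0.626, 1 cell with both) in the FACS and ice library. The causes of the other shifts were not tested.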
